A study of Mus musculus with 4 samples.

Results

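Ptprv, Mmel1, Cpn1, Pdzd9, Lkaaear1, Pmis2 and Taf9 are 7 genes, of 54232 in the gene table, that were chosen because their read counts were much lower in Dis3 knockout testes than in control testes, with both knockout libraries below both control libraries. They share no family or pathway. Whole testes of B6D2F1 mice were sequenced at postnatal day 17. The control group (WT, 2 libraries) carries the label Dis3 WT, and the knockout group (KO, 2 libraries) the label Dis3 KO, described by the submitters as a conditional knockout. The recombinase behind the conditional allele, its promoter and the number of animals per library are not stated in the labels. DIS3, the protein, is a catalytic subunit of the RNA exosome, which degrades and trims RNA from the 3′ end. Because the counts chose the genes, their falls are given as a description and without a test.

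At this age the most advanced germ cells of the mouse testis are in the prophase of meiosis, surrounded by Sertoli cells inside the tubules and by Leydig cells, myoid cells, vessels and macrophages outside them. The 7 genes belong to different parts of cell biology. Ptprv is the gene of a receptor-type protein tyrosine phosphatase known from bone-forming cells and from the testis. Mmel1 encodes a zinc endopeptidase related to neprilysin, and mice that lack it have reduced male fertility. Cpn1 encodes the catalytic subunit of carboxypeptidase N, a plasma enzyme made mainly in liver that removes basic residues from the ends of peptides such as bradykinin and the complement anaphylatoxins. Pmis2 encodes a small sperm membrane protein that sperm need to pass from the uterus into the oviduct. Pdzd9 is named for a PDZ domain, a module that binds the tails of other proteins, and Lkaaear1 for a sequence motif. Taf9 encodes a histone-fold subunit of the transcription factor TFIID and of the coactivator SAGA.

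Reads assigned to genes numbered 31031920 (WT replicate 1), 40329170 (WT replicate 2), 17663416 (KO replicate 1) and 19255782 (KO replicate 2). Levels are given as CPM, that is, reads scaled to library size after TMM scaling. Means carry the SD of the 2 libraries of a group, and log2 fold changes are KO over WT ± SE from the edgeR fit over all 25076 tested genes. Since no label ties the replicates to separate animals, p-values measure only the spread between these libraries, which may be technical. Dis3 itself was at 80.2 and 80.7 CPM in the WT libraries and at 39.6 and 42.9 CPM in the KO libraries. Of all tested genes, 20.3% were called lower in KO (5092) and 11.6% were called higher (2906) at an edgeR adjusted p under 0.05. The split between the directions moved with the processing, to 7442 lower and 1727 higher with scaling to Sertoli cell genes, 5406 and 1194 with background subtracted, and 4374 and 1008 with DESeq2.

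All 7 genes passed the filter on low counts. Their mean level in KO was between 20.1% (Ptprv) and 39.4% (Taf9) of that in WT. In whole testis, fewer cells of a type and less RNA per cell cannot be told apart. Both KO libraries lay below both WT libraries for 7 of 7 genes, which the choice of the genes fixes; the same holds for 32.7% of all tested genes. The gap was wide in each case, which also follows from choosing genes with large falls. The lowest WT library exceeded the highest KO library by a factor between 2.26 (Taf9) and 4.78 (Ptprv). The 2 libraries of the same group differed by at most 1.34 times (Mmel1 in KO). Among the 5026 called lower genes with groups apart and an average log2 CPM of at least 1 (20% of the tested genes), ranked by log2 fold change, Ptprv was number 4, Pmis2 8, Lkaaear1 10, Mmel1 12, Cpn1 16, Pdzd9 18 and Taf9 37.

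**Figure D1:**
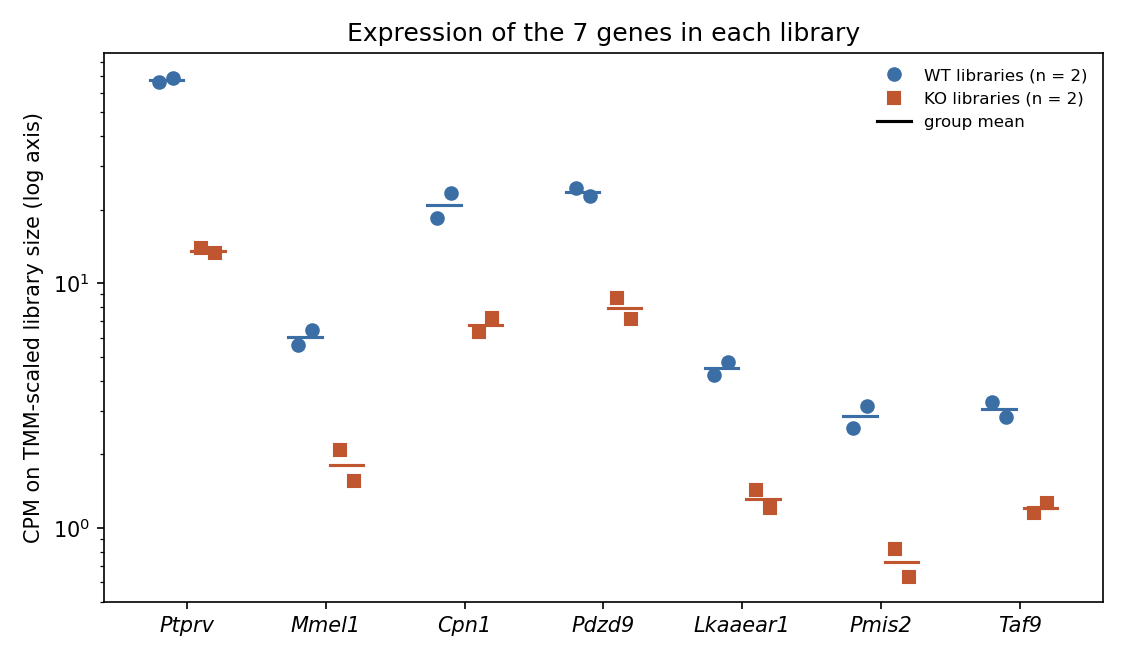
CPM of each of the 7 genes (log axis) in the 2 WT libraries (blue circles) and the 2 KO libraries (orange squares), with the group means as bars. Ptprv is the most abundant in reads, near 67.7 CPM in WT, and Pmis2 in KO the least, at 0.727 CPM; no KO library reaches a WT library of the same gene.

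Genes directly beside these in that order were mostly predicted ones. Ptprv (log2 fold change -2.32) stood between Gm12763 (-2.52) and Gm17227 (-2.14). Nr4a1, an orphan nuclear receptor gene, stood just above Pmis2, both at -1.99 after rounding, and AI987944 (-1.87) stood between Pmis2 and Lkaaear1. Gm15966 (-1.76) and Gm37819 (-1.70) flanked Mmel1, and 4930535G08Rik (-1.64) came before Cpn1. Gm42918 (-1.60) separated Cpn1 from Pdzd9, which Gm10683 (-1.54) followed. Taf9 came after Gm17184 (-1.34) and before the homeobox gene Hoxa3 (-1.33).

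Ptprv (ENSMUSG00000097993.7, GRCm38 chromosome 1, 135108497 to 135132594, minus strand) showed the deepest fall. The annotation gives it the biotype processed transcript, that is, no coding sequence, with 36 exon blocks and 6987 exonic bases. Its counts were 1960 and 2618 reads in WT, replicate 1 first, and 253 and 274 reads in KO. In CPM this was 66.3 and 69 in WT and 13.9 and 13.3 in KO. Libraries of the same genotype were within 1.04 times of each other. The log2 fold change was -2.32 ± 0.0878, the smallest SE of the 7, and Ptprv also had the most reads of them. An antisense gene, Gm10535, covers 345 of its exonic bases on the other strand and had 6 and 8 reads in WT and 3 and 4 in KO.

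Both peptidase genes were lower. Mmel1 (ENSMUSG00000058183.14, chromosome 4, 154869585 to 154895528, plus strand, 24 exon blocks over 3475 bases) had 166 and 244 reads in WT and 38 and 32 reads in KO. Its level was 5.62 and 6.43 CPM in WT and 2.08 and 1.55 CPM in KO, so that the groups lay apart (log2 fold change -1.74 ± 0.226). Cpn1 (ENSMUSG00000025196.4, chromosome 19, 43956307 to 43986556, minus strand, 9 exon blocks over 3688 bases) had 544 and 882 reads in WT and 115 and 149 reads in KO. Its WT libraries, at 18.4 and 23.3 CPM, were the farthest apart of the 7 genes, by 1.26 times. The KO libraries were at 6.31 and 7.24 CPM, and the log2 fold change was -1.62 ± 0.14.

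Pmis2 (ENSMUSG00000049761.6, chromosome 7, 30670722 to 30671605, minus strand) is the shortest of the 7, with 2 exon blocks over 699 bases, and the one with the fewest reads. It had 76 and 120 reads in WT and 15 and 13 reads in KO, or 2.57 and 3.16 CPM against 0.823 and 0.631 CPM. Its log2 fold change of -1.99 ± 0.33 has the largest SE of the set. Lkaaear1 (ENSMUSG00000045794.3, chromosome 2, 181696793 to 181698442, minus strand, 4 exon blocks over 733 bases) had 125 and 181 reads in WT and 26 and 25 in KO. This gave 4.23 and 4.77 CPM in WT and 1.43 and 1.21 CPM in KO (-1.77 ± 0.256).

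Pdzd9 (ENSMUSG00000030887.4, chromosome 7, 120658731 to 120670343, minus strand, 4 exon blocks over 2180 bases) was better covered, with 721 and 861 reads in WT and 158 and 147 reads in KO. It stood at 24.4 and 22.7 CPM in WT and at 8.67 and 7.14 CPM in KO (log2 fold change -1.58 ± 0.124). Of its exonic bases 552 are overlapped on the opposite strand, 504 of them by Uqcrc2, a core subunit gene of respiratory complex III, with which it lies tail to tail. The counts were made by strand, so that reads of the pair are kept apart as far as the library keeps strand.

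Taf9 (ENSMUSG00000052293.14, chromosome 13, 100651579 to 100656060, plus strand, 2 exon blocks over 2120 bases) had 97 and 108 reads in WT and 21 and 26 reads in KO. Its level was 3.28 and 2.85 CPM in WT and 1.15 and 1.26 CPM in KO (-1.33 ± 0.286), the shallowest fall of the 7. Its count covers only a part of its RNA. On the same strand 1564 of its exonic bases (73.8%) also belong to Ak6, which encodes a nuclear adenylate kinase, and reads that overlap 2 genes were left out by the counting. The bases outside Ak6 add up to 556, in stretches of 47, 111 and 397 bases and a single last base. In addition, Taf9 transcripts match processed pseudogenes over long stretches, Gm14335 on chromosome 6 (793 bases, 96.6% identical) and Gm12372 on chromosome 4 (760 bases, 98.4%), and a further one, AC133523.1 (630 bases, 97.6%). The counting also dropped reads with more than 1 place in the genome, so the level of Taf9 RNA as a whole cannot be read from these counts, and its fall is uncertain.

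**Figure D2:**
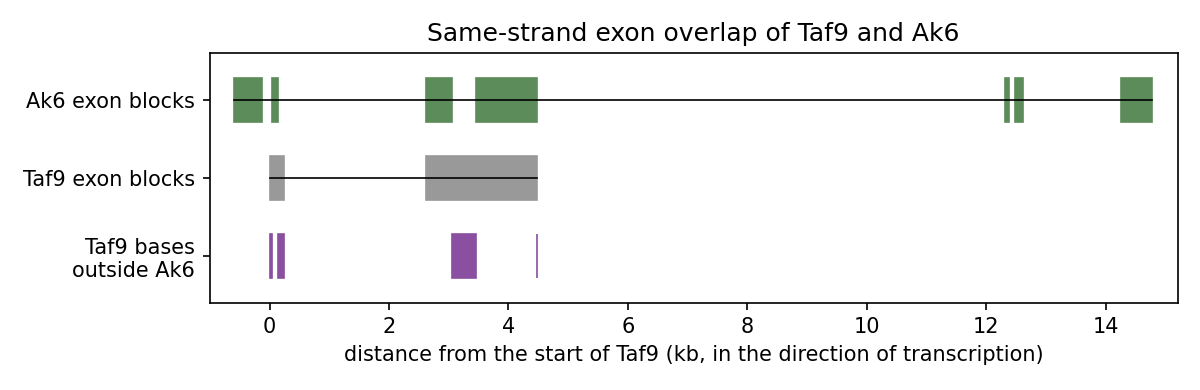
Exon blocks of Ak6 (green) and Taf9 (grey) as counted, by distance in kb from the start of Taf9 in the direction of transcription, and the 556 Taf9 bases outside Ak6 (purple). Most of the second Taf9 block, and the middle of the first, are also Ak6 exon.

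Ak6, which is subject to the same loss of shared reads, had 997 and 1246 reads in WT and 474 and 421 in KO, and fell (log2 fold change -0.52 ± 0.102, edgeR adjusted p = 0.000388). The pseudogene Gm14335 had 21 and 18 reads in WT and 3 and 5 in KO (-1.49 ± 0.664, adjusted p = 0.0882 by edgeR). Gm12372 had 3 and 4 reads in WT and 4 and 3 in KO. Taf9b, the close relative of Taf9, was at 77.8 and 72.9 CPM in WT and at 69.5 and 77.3 CPM in KO, with overlapping groups (-0.04 ± 0.0712, adjusted p = 0.724 by edgeR). These 3 genes were picked after their values were seen. For no other of the 7 genes did a transcript match another gene over 200 bases or more at 90% identity, apart from the overlap of Pdzd9 with Uqcrc2.

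Background reads would add more to the KO values than to the WT values if exons received them at the rate found upstream of genes. Whether that rate holds within exons was not tested. Background, measured in regions upstream of genes that were too low to be tested, was 2.83 and 2.66 reads per kilobase and strand in WT and 3.12 and 3.49 in KO, although the KO libraries were the smaller ones. Over the exonic bases that no other gene of the strand shares, background at this rate would account for 28.5% and 37.9% of the Mmel1 reads in KO replicates 1 and 2, and for 8.26% and 7.47% of the Taf9 reads. The Taf9 shares may be too large, and its subtraction below too, because reads crossing from these bases into Ak6 exons were left out. For Pmis2 the shares were 14.5% and 18.8%, and for Pdzd9 4.30% and 5.18%. In WT the largest share was 5.92% (Mmel1 in replicate 1). With background subtracted over these bases, an alternative chosen after seeing the data, the falls were larger for all 7 genes: Mmel1 went to -2.24 ± 0.261, Taf9 to -1.44 ± 0.302, Pmis2 to -2.18 ± 0.358, Ptprv to -2.44 ± 0.0885, Lkaaear1 to -1.90 ± 0.268, Cpn1 to -1.74 ± 0.15 and Pdzd9 to -1.64 ± 0.128. The subtraction also moved the median of all tested genes by -0.18.

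**Figure D3:**
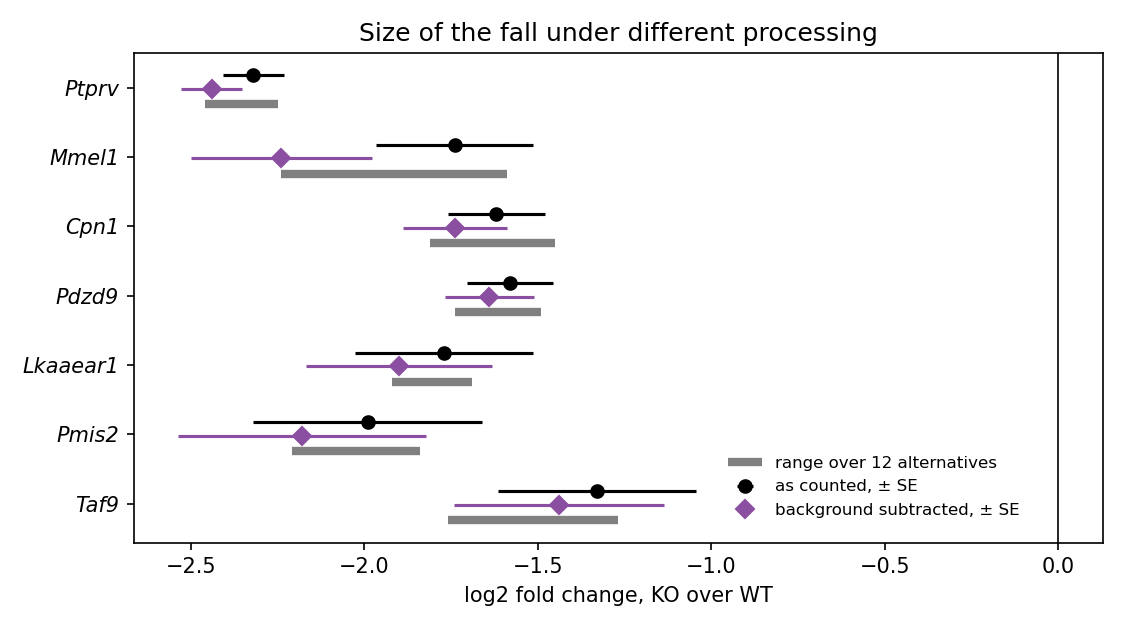
Log2 fold change (KO over WT) of each gene as counted (black, ± SE) and with background subtracted over unshared exonic bases (purple, ± SE), with the range over 12 alternative settings as a grey bar. Mmel1 moves most with background, to -2.24; the Taf9 bar ends at -1.76 because 1 setting also subtracts background over the bases shared with Ak6, whose reads were not counted.

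The deposited upstream tables count reads in the 3000 bases before a gene, on its own strand (sense) and on the other (antisense), and hold regions for Cpn1, Lkaaear1 and Pmis2. The region of Pmis2 (chromosome 7, 30671606 to 30674605) carried sense reads well above background in WT. Sense reads numbered 49 and 73 in WT, which is 5.77 and 9.15 times background, and 13 and 17 in KO, which is 1.39 and 1.62 times. Scaled to the gene libraries this was 1.79 ± 0.189 CPM in WT and 0.769 ± 0.0794 CPM in KO, so that the groups were apart (log2 ratio -1.22). Its antisense reads were 12, 11, 9 and 8 in the same order, at most 1.41 times background.

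The other upstream regions were near background. Cpn1 (chromosome 19, 43986557 to 43989556) had 16 and 6 sense reads in WT and 7 and 13 in KO, and 10, 9, 9 and 11 antisense reads, with no sense library above 1.89 times background. Lkaaear1 (chromosome 2, 181698443 to 181701442) had 10 and 6 sense reads in WT and 8 and 13 in KO. Its antisense reads, 16 and 13 in WT and 8 and 10 in KO, were 1.89 and 1.63 times background in WT and 0.855 and 0.954 times in KO. Over all 15129 regions with a mean of at least 10 sense reads the median log2 ratio was 0.80, and 0.231% of them were lower by 2-fold or more, as Pmis2 was. Background alone was 8.49 and 7.98 reads per region and strand in WT and 9.36 and 10.5 in KO, near that minimum. Scaled to the smaller KO libraries, background is therefore higher in KO. Its part in the median of 0.80 and in the 0.231% was not tested. Pmis2, with 49 and 73 sense reads in WT, lay well above the minimum. The 0.231% is therefore not a share among regions of like read number. The upstream values of Cpn1, Lkaaear1 and Pmis2 come from the contrast that chose the genes and were not tested.

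**Figure D4:**
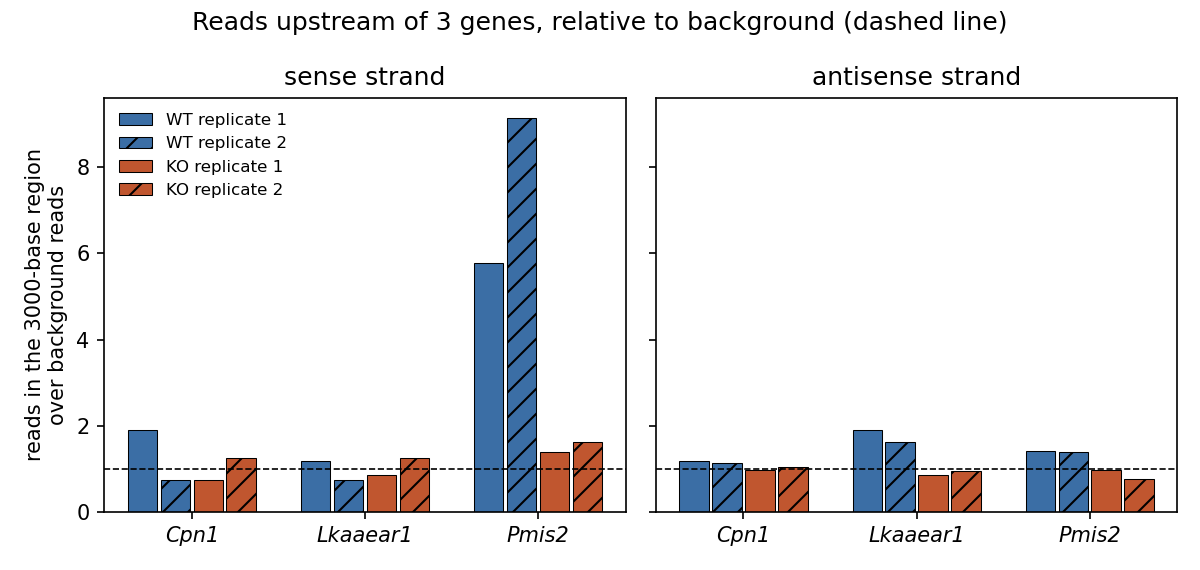
Reads in the 3000-base region upstream of Cpn1, Lkaaear1 and Pmis2 divided by the background reads of the same library (dashed line at 1), for WT (blue) and KO (orange) replicates 1 (plain) and 2 (hatched), on the sense and antisense strands. The Pmis2 sense bars of WT, 5.77 and 9.15, stand above all others.

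The start regions of these genes are shown because reads upstream of a start can be read against the sequence there. Of the 7 genes 6 had an entry in the RefSeq promoter table (GRCm38.p6, 250 bases before to 50 bases after a start), and Ptprv had none. Capitals mark matches, on either strand, to the CCAAT box (CCAAT), the GC box (GGGCGG) and a short RFX motif (GTTGCC); Cpn1 has none. The Pmis2 sequence (chr7:30671556-30671855, minus strand) holds the end of the upstream region that carried reads; Lkaaear1 (chr2:181698393-181698692, minus) and Cpn1 (chr19:43986471-43986770, minus) are the regions near background; Pdzd9 (chr7:120670294-120670593, minus) and Taf9 (chr13:100651093-100651392, plus) are given as examples of an RFX match and of a CpG-rich start.
Pmis2: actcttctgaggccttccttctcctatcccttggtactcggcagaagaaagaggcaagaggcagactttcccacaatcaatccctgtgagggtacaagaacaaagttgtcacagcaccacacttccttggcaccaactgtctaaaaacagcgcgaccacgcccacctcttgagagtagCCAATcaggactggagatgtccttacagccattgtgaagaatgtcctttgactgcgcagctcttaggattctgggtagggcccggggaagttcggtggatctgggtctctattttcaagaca
Lkaaear1: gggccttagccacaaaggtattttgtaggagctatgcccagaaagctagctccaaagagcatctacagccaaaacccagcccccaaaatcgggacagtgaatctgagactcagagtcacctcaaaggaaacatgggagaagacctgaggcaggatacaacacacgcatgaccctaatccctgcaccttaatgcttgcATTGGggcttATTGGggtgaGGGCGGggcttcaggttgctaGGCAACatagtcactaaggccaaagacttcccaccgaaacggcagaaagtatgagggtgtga
Cpn1: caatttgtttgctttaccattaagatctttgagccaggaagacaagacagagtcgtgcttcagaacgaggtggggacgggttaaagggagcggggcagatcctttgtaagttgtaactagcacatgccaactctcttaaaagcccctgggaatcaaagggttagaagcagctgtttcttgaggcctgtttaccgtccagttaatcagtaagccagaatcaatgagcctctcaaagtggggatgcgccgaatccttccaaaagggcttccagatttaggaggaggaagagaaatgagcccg
Pdzd9: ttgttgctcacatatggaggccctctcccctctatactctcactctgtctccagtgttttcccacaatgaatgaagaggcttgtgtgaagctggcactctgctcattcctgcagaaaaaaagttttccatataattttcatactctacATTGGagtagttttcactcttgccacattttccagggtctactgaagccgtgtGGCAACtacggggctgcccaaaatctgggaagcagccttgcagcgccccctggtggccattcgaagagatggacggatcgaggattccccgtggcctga
Taf9: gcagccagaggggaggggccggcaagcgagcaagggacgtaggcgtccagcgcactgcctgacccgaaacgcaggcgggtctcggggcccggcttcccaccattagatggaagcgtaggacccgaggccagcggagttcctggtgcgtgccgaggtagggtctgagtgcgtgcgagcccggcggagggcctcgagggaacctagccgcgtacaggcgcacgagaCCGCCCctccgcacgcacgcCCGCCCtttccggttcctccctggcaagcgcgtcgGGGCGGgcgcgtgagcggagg

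Apart from Taf9, these start regions had CpG ratios on both sides of the median of all promoters. The ratio of observed to expected CpG was 0.201 in Mmel1, 0.253 in Lkaaear1, 0.360 in Pmis2, 0.376 and 0.395 at the pair of Pdzd9 starts and 0.474 in Cpn1, against a median of 0.384 over all 32851 promoters. Both Taf9 starts were CpG rich, at 0.960 and 1.15, with 72% and 74.7% G and C, but their sequences overlap each other. The first Taf9 start (100651343) lies upstream of the start of the counted gene (100651579). Its sequence falls within the first Ak6 exon block (100650979 to 100651445). No start region held the TATA box TATAAA (13.6% of all promoters do) or the full response element TGACGTCA (1.79%). CCAAT occurred in Pdzd9, Lkaaear1 and Pmis2 (3 of 6 genes; 37.4% of all promoters). GGGCGG occurred in Mmel1, Lkaaear1 and Taf9 (3 of 6; 35.7%), and TGACG at the second Taf9 start only (20.8%). GTTGCC was found in Pdzd9 and Lkaaear1 (2 of 6; 12.5%), 49 to 44 bases before the first start of Pdzd9 and 12 to 7 bases before that of Lkaaear1. The MYB palindrome AACNGTT was found at the second Pdzd9 start alone (4.45%), while the shorter MYB core AACNG, which the palindrome contains, was in 5 of the 6 genes but also in 80.3% of all promoters. Both strands were searched, and a match is a description of letters only.

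Per length, the order of the genes differs from that of the reads. In WT, Pdzd9 had the highest level (10.8 ± 0.548 RPKM, that is, CPM per kilobase of exon), followed by Ptprv (9.69 ± 0.276), Lkaaear1 (6.14 ± 0.525), Cpn1 (5.65 ± 0.931), Pmis2 (4.10 ± 0.600), Mmel1 (1.73 ± 0.166) and Taf9 (1.45 ± 0.145). The ranges of the 2 WT libraries overlapped only between Lkaaear1 and Cpn1 among genes next to each other in this order. The Taf9 level is too low by construction: divided by the bases it does not share with Ak6, it would be 5.51 RPKM. That value may still be too low, because reads that cross from those bases into an Ak6 exon were left out too. The WT level of Pdzd9 was above that of 77.3% of the tested genes, and that of Mmel1 above 49.2%, and that of Taf9, as counted, above 46.9%. In KO, Pdzd9 remained first at 3.63 ± 0.496 RPKM, while Ptprv (1.95 ± 0.0582) overlapped with Cpn1 (1.84 ± 0.178), and Cpn1 with Lkaaear1 (1.80 ± 0.205). Pmis2 (1.04 ± 0.194) stood apart from both its neighbours in the order, and Taf9 (0.570 ± 0.0368) and Mmel1 (0.524 ± 0.108) overlapped.

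Neighbouring genes, chosen by position and not by their counts, were tested. Within 50 kb of the 7 genes lay 45 others, of which 30 were tested. Among them 9 fell (30%) and 2 rose (6.67%), while 19 were not called, with a median log2 fold change of -0.10. Over all tested genes 20.3% were called lower and 11.6% higher, with a median of 0.05. That median depended on level: with tested genes below 1 in average log2 CPM left out, it was -0.11 over the remaining 15180. The neighbours' median was close to this value. At least 5026 of those 15180 genes were called lower, a larger share than 20.3%. No test compared these shares with the background.

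Next to Pmis2, Haus5, a subunit gene of the augmin complex of the spindle, fell (94 and 107 reads in WT, 24 and 33 in KO, log2 fold change -1.03 ± 0.277, adjusted p = 0.00639 by edgeR). It lies 5727 bases downstream on the same strand, and 56.5% of its exonic bases are shared with other genes of that strand, so its count is uncertain. Cox6b1, a subunit gene of cytochrome c oxidase, also fell (-0.29 ± 0.0842, adjusted p = 0.0114), and Atp4a, the gastric proton pump gene, rose (0.55 ± 0.186, adjusted p = 0.0263). On the far side 2200002J24Rik did not pass (0.84 ± 0.329, adjusted p = 0.0553). Near Lkaaear1, Tcea2, the gene of a testis form of the elongation factor TFIIS, fell from 80.2 ± 2.34 to 44.5 ± 1.25 CPM (-0.85 ± 0.0714, adjusted p = 7.75e-09), and the splicing factor gene Prpf6 fell by 0.21 ± 0.0612 on the log2 scale. Rgs19 (-0.01 ± 0.134) and Oprl1 (0.49 ± 0.414), the nearest tested genes on its sides, did not pass.

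Near Pdzd9, Uqcrc2 fell from 179 ± 12.3 to 126 ± 3.88 CPM (-0.50 ± 0.0635, adjusted p = 1.85e-06 by edgeR) and the noncoding gene Gm32916, 28961 bases away, fell with 58 and 79 reads in WT and 18 and 13 in KO (-1.33 ± 0.359, adjusted p = 0.00641). The antisense gene 4930588G17Rik, which overlaps the start of Pdzd9, had 23 and 3 reads in WT and 8 and 9 in KO, so that its groups overlapped (0.09 ± 0.773). The nearest tested genes that do not overlap, 9030407P20Rik (-0.25 ± 0.203) and Gm45112 (0.21 ± 0.37), did not pass. Around Taf9, Ak6 fell as given above, and so did Cdk7, the kinase gene of the transcription factor TFIIH (-0.37 ± 0.0864, adjusted p = 0.00185), while Rad17 (-0.13 ± 0.0655) and Ccdc125 (-0.08 ± 0.283) did not pass.

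Around Ptprv, 3 neighbours were tested. Ptpn7, whose start lies 105 bases from that of Ptprv on the opposite strand, had 43 and 64 reads in WT and 33 and 34 in KO (0.13 ± 0.316, adjusted p = 0.779 by edgeR). Lgr6, 3220 bases downstream, was at -0.28 ± 0.136 (adjusted p = 0.117), and Arl8a, a lysosomal GTPase gene, rose (0.19 ± 0.0605, adjusted p = 0.0203). Around Mmel1 none of the 3 tested neighbours passed: Fam213b (0.22 ± 0.189), which overlaps its end, Ttc34 (-0.11 ± 0.142) and Tnfrsf14 (0.35 ± 0.408). Its antisense neighbour Gm13112 had 3 to 10 reads per library. Near Cpn1, Erlin1 fell at a distance of 48387 bases (-0.49 ± 0.0745, adjusted p = 1.88e-05), and the nearer Dnmbp (-0.05 ± 0.0659) and Cyp2c23 (-0.38 ± 0.337) did not pass. Both rises were lost without any one of the 4 libraries (adjusted p from 0.0526 to 0.236). Prpf6 (0.0522) and Cox6b1 (0.188) lost their call without WT replicate 2, Prpf6 also with a filter of 1 CPM in 2 libraries (0.0654), and Gm32916 (0.0631) without KO replicate 2.

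**Figure D5:**
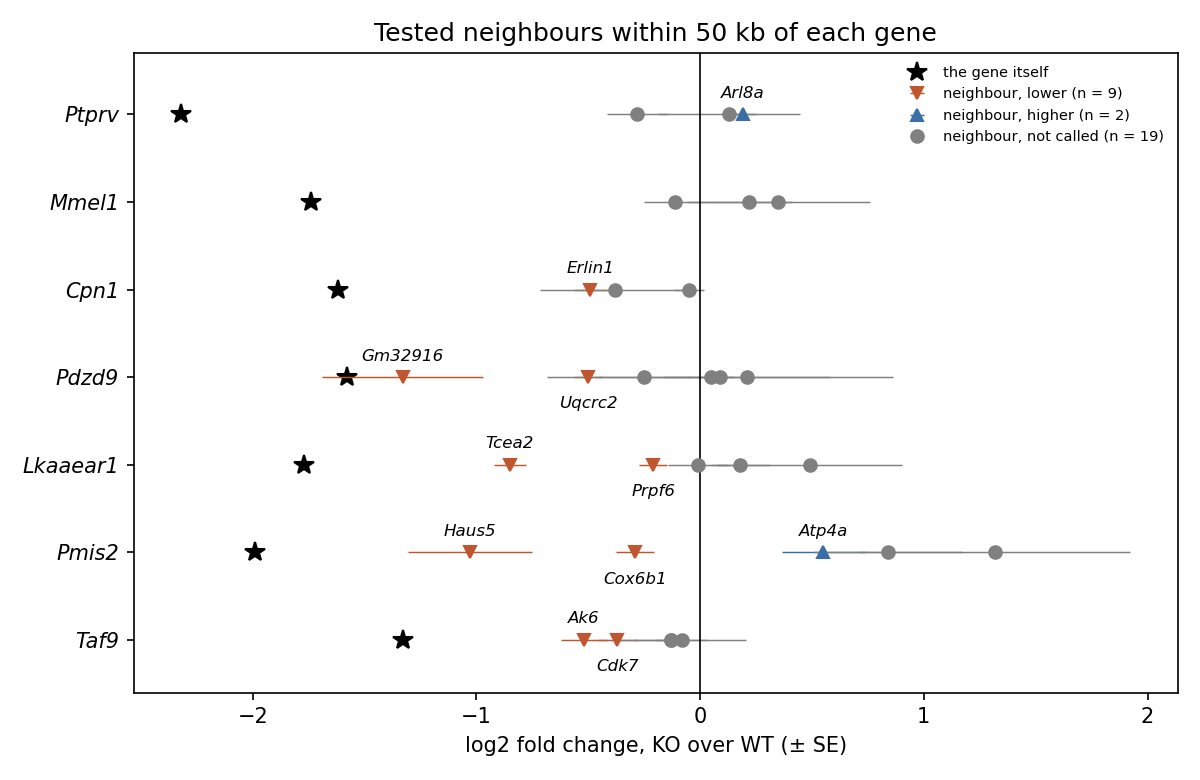
Log2 fold change (KO over WT, ± SE) of the 30 tested genes within 50 kb of each of the 7 genes, 1 row per gene, with the gene itself as a star. Neighbours called lower (9, orange) or higher (2, blue) are named; all stars lie at -1.33 or below, and the lowest called neighbours are Gm32916 (-1.33) and Haus5 (-1.03).

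The genes with the most similar profile were sought by the Euclidean distance of log2 CPM relative to the WT mean over the 4 libraries, among 13424 tested genes with a CPM above 0 in every library, an average log2 CPM of at least 1 and no predicted symbol. Nr4a1 was nearest to Ptprv (distance 0.47), Lkaaear1 (0.40) and Pmis2 (0.38). Shcbp1l, a gene known from male meiosis, was nearest to Pdzd9 (0.25), Cpn1 (0.29) and Mmel1 (0.43). It was followed by Catsperz (0.31), a gene of the sperm calcium channel, and Armh1 (0.34) for Pdzd9, by Myl10 (0.30) and Catsperz (0.41) for Cpn1, and by the ghrelin gene Ghrl (0.46) and the globin gene Hbb-bt (0.51) for Mmel1. For the other genes the list went on with Shcbp1l (1.16) and Ghrl (1.24) for Ptprv, Shcbp1l (0.41) and Catsperz (0.54) for Lkaaear1, and Shcbp1l (0.73) and Ghrl (0.76) for Pmis2. Taf9 had Frs3os (0.09), Hoxa3 (0.10) and Tcp10c (0.15). Within the 7, Mmel1 and Lkaaear1 were the closest pair (0.14) and Ptprv and Taf9 the farthest (1.40). With 4 libraries the measure holds little more than the size of the difference between the groups.

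Genes related to the 7 did not move as a block. The shares below stand beside 20.3% lower, 11.6% higher and a median of 0.05 over all tested genes, and no test compared them. With tested genes below 1 in average log2 CPM left out, that median was -0.11. At least 5026 of the 15180 genes that remain were called lower, a larger share than 20.3%. Of 34 tested subunit genes of TFIID and SAGA other than Taf9, 20 fell and 2 rose (58.8% and 5.88%), with a median log2 fold change of -0.25. The 4 with the smallest adjusted p were Tbpl1, a relative of the TATA-binding protein with a role in spermatids (-0.57 ± 0.0675), Supt20 (-0.51 ± 0.0604), Tbp, the TATA-binding protein itself (-0.48 ± 0.0598), and Supt3 (-0.61 ± 0.0896). Of 11 adenylate kinase genes 5 fell and 1 rose (45.5% and 9.09%, median -0.07), with Ak8 at -0.76 ± 0.0801, Ak9 at -0.65 ± 0.0995 and Ak7 at -0.51 ± 0.093.

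Of 20 receptor-type phosphatase genes other than Ptprv, 1 fell and 6 rose (5% and 30%, median 0.29). Ptprd (0.42 ± 0.068), Ptprb (0.36 ± 0.0853) and Ptprg (0.23 ± 0.0639) rose, and Ptprs fell by 0.22 ± 0.0595. The count of 6 was 3 without KO replicate 2, with DESeq2 or with background subtracted, and 2 with scaling to Sertoli cell genes. Of 29 metallopeptidase genes of the families of Mmel1 and Cpn1, 5 fell and 6 rose (17.2% and 20.7%, median 0.36), a lower share near the 20.3% of all tested genes. Agbl2 (-0.61 ± 0.0613) and Agbl5 (-0.56 ± 0.0647), which act on the tails of tubulin, fell, while Ece1 (0.38 ± 0.0589), the endothelin-converting enzyme, and Mme (0.39 ± 0.062), neprilysin itself, rose. Of 13 tested genes that, like Pmis2, sperm need to enter the oviduct or to process ADAM3, 6 fell (46.2%) and 7 were not called (median -0.31). Adam3 fell from 52.9 ± 0.907 to 24.2 ± 3.07 CPM (-1.13 ± 0.0896), Adam2 from 158 ± 0.740 to 78.8 ± 4.68 CPM, and the chaperone gene Clgn (-0.60 ± 0.0626) and the surface protein gene Tex101 (-0.55 ± 0.0588) fell too.

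Markers of the cell types of the testis also differed between the genotypes, and their part in the falls of the 7 genes was not tested. Over all tested genes 20.3% were called lower and 11.6% higher, and the lower share was larger with low-count genes left out, as given above. Of 20 tested markers of pachytene spermatocytes 18 fell (90%, median -0.88), and their summed level was 6143 to 6398 CPM in WT and 3589 to 3950 CPM in KO. This list includes Adam2, Adam3, Tbpl1 and Shcbp1l, which are named above, so it is not separate from those results. Stra8 is in the lists of both early meiotic prophase and differentiating spermatogonia. Early meiotic prophase genes fell in 22 of 26 cases (84.6%, median -0.45; 5327 to 5546 CPM in WT, 3882 to 3914 CPM in KO). Genes listed for spermatids fell in 7 of 11 tested cases (63.6%, median -0.88; 880 to 909 CPM in WT, 490 to 544 CPM in KO). The others of the 17 on that list were too low to be tested. Since the most advanced germ cells at this age are in meiotic prophase, these reads cannot be taken to mark spermatids.

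Markers of other cells moved in both directions. The median log2 fold change was -0.30 for differentiating and 0.17 for undifferentiated spermatogonia. It was 0.21 for Sertoli, -0.12 for Leydig, -0.01 for myoid, 0.69 for macrophage and 0.22 for endothelial cell markers. For undifferentiated spermatogonia and Leydig cells the median and the summed level below went in opposite directions. Differentiating spermatogonia had 6 lower and 1 higher of 12 (50% and 8.33%; 1012 to 1061 CPM in WT, 767 to 781 CPM in KO), and undifferentiated ones 2 lower and 2 higher of 15 (13.3% each; 388 to 391 CPM in WT, 341 to 346 CPM in KO). For Sertoli cells, a cell type in which Ptprv is known, 6 of 20 markers rose and 14 were not called (30% higher; 7025 to 7070 CPM in WT, 7630 to 7989 CPM in KO). Leydig cell markers had 3 lower and 3 higher of 10 (30% each; 561 to 569 CPM in WT, 592 to 614 CPM in KO), and myoid cell markers 1 lower and 2 higher of 8 (12.5% and 25%; 1108 to 1189 CPM in WT, 1150 to 1209 CPM in KO). Macrophage markers rose in 10 of 10 (194 to 195 CPM in WT, 310 to 317 CPM in KO) and endothelial ones in 2 of 8 (25%; 145 CPM in WT, 162 to 167 CPM in KO). The 3 tested blood cell genes fell (median -1.42; 10.7 to 13.5 CPM in WT, 4.37 to 5.32 CPM in KO). In no list was a gene at 0 in all libraries.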

How the data were processed

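The values are raw read counts that the authors made with featureCounts 1.6.4 on GENCODE M18, per the file headers: exons on the gene's strand, and 3000-base upstream regions on either strand. The recorded commands keep neither multi-mapping reads nor reads over several genes. HISAT2, cutadapt and the build GRCm38.p5 are listed in the submitters' processing notes. Symbols matched 99.72% of 54232 genes, and 97.52% of compared positions equal those of GENCODE M21.

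Genotype was the only term of a robust quasi-likelihood fit (edgeR 4.0.16, R 4.3.3) of the counts after filterByExpr and TMM, with Benjamini-Hochberg adjustment over all tested genes and a threshold of 0.05, and tested on simulated data. Every adjusted p printed comes from this fit. SE is the log2 fold change divided by the square root of F. The alternatives comprised DESeq2 1.42.0, RLE (median-of-ratios) scaling, 2 other filters, a replicate block, each library left out, Sertoli gene scaling, background subtraction and other neighbour distances. Background was a trimmed mean (25% at each end) over 13469 upstream regions whose genes are autosomal and untested. It was subtracted on autosomes only, keeping the library sizes and TMM factors of the unsubtracted counts, over all exonic bases and, added after seeing the data, over bases that no other gene of the strand shares. Transcripts were compared with blastn 2.17.0. The 7 genes, the gene lists and the alternatives were chosen with earlier results of these data known. Text names the 7 genes, overlapping, nearest and called neighbours, up to 4 called genes of each related list by adjusted p, the 3 nearest profiles, and genes beside each in rank; 1 gene that the rule names is not reported here. Replicates differed beyond counting noise (chi-square per degree of freedom 5.04 in WT and 5.98 in KO).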

Additional observations from a re-analysis of the deposited data

How the results depend on the processing

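All 84 log2 fold changes of the 7 genes under 12 alternatives were below 0, which the choice of the genes largely fixes. Of these values 11 moved by 1 SD between replicates or more. Sertoli gene scaling moved the median of all genes by -0.15, background subtraction by -0.19 and no filter by 0.16. Genes called lower stayed within 1.5 times of 5092. Genes called higher (2906) were 1937 with no low-count filter, 1727 with Sertoli gene scaling, 1194 with background subtracted and 1008 with DESeq2. Subtracting background over unshared bases only, an alternative chosen after seeing the data, gave 1206 genes higher, 1 neighbour higher, 0 adenylate kinases higher and 3 receptor phosphatases higher; Taf9 was at -1.44 with it and at -1.76 with all its exonic bases, most of which it shares with Ak6. The replicate block gave 5469 lower and 3362 higher. The numbers are shared only as labels (correlation of deviations 0.129 over 12554 genes); the block changed the sperm list from 0 higher to 1, as did the filter of 1 CPM. Neighbours higher (2) were 1 with median-of-ratios scaling or background subtracted, and 0 with no filter, Sertoli gene scaling or DESeq2. Within 20 kb 4 neighbours were lower and 1 higher, and within 100 kb 14 and 4. The 2 TFIID and SAGA genes that rose became 1 with median-of-ratios scaling or DESeq2, and 0 with no filter or Sertoli gene scaling. The 1 adenylate kinase gene that rose was lost (0) with median-of-ratios scaling, no filter, Sertoli gene scaling, background subtracted and DESeq2. Receptor phosphatases that rose (6) were 11 with the filter of 1 CPM, 3 with no filter, background subtracted or DESeq2, and 2 with Sertoli gene scaling, which left 2 lower. Without 1 library in turn, genes higher ranged from 1324 to 2429, genes lower from 4060 to 5260, neighbours lower from 7 to 9 and higher from 0 to 0, TFIID and SAGA genes lower from 15 to 21 and higher from 0 to 2, adenylate kinases higher from 0 to 1, receptor phosphatases higher from 3 to 5 and lower from 0 to 1, sperm genes lower from 6 to 7 and higher from 0 to 1, and metallopeptidases higher from 4 to 7. The cause of these changes was not tested. With 2 libraries a group, and 13 to 38 KO reads for Pmis2, Lkaaear1, Taf9 and Mmel1, depth limits how well the falls of these 4 genes are sized.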
